A study of Mus musculus with 80 samples.

Results

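The 20 Myc-driven mouse mammary tumours with the highest level of Wif1 were set against the 20 with the lowest, out of 80 tumours in all. The groups were to be chosen by a score for Wnt pathway output, the mean of those of Axin2, Lef1, Tcf7, Nkd1 and Wif1 that exceeded an intensity of 74.6 on at least 10 of the 80 arrays. Wif1 alone met that condition, with 23 arrays above 74.6. Axin2 exceeded it on 3 arrays, Lef1 and Nkd1 on 0, and no probe set here carried the name Tcf7. The score was therefore the level of Wif1, and the groups are called Wif1-high and Wif1-low, since 1 gene does not measure the output of a pathway.

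Every mouse was of the FVB strain and carried MMTV-Myc, the Myc oncogene under the mouse mammary tumour virus promoter, which is active mainly in mammary epithelium. The backgrounds were E2F1 null, E2F2 null, E2F3 heterozygous and wild type for the E2F genes, with 20 tumours each, and each tumour was hybridised to 1 Affymetrix array. The 20 Wif1-high tumours comprised 6 E2F1 null, 5 E2F2 null, 4 E2F3 heterozygous and 5 wild-type tumours, and the 20 Wif1-low tumours comprised 2 E2F1 null, 7 E2F2 null, 7 E2F3 heterozygous and 4 wild-type tumours. All values are intensities from whole tumours, so fewer cells of a type and less RNA per cell cannot be told apart.

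Wnt ligands bind Frizzled receptors with the coreceptors Lrp5 and Lrp6, which stabilises beta-catenin and lets it act with TCF factors on target genes. Axin2, Nkd1, Lef1 and Tcf7 are widely used as targets of this route. Wif1 is a secreted protein that binds Wnt ligands and blocks their action. In the mammary gland, Wnt signals support basal and stem cells, whereas prolactin, acting through Stat5 and together with Elf5, drives the alveolar cells that make milk.

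Wif1 intensity ran from 107.3 to 549 in Wif1-high tumours (median 148) and from 0.264 to 10.9 in Wif1-low tumours (median 6.15). These levels chose the groups and carry no test. The lowest Wif1-high tumour had 107.3 and the next tumour in rank had 102.7, while the highest Wif1-low tumour had 10.9 and the tumour just above it 11.6. Since 57 of the 80 arrays were not above 74.6, the order of the tumours at the low end rests on dim signals. Axin2 had a median of 33.1 in Wif1-high and also 33.1 in Wif1-low tumours. Medians of Lef1 were 12.4 in Wif1-high and 4.51 in Wif1-low tumours, and those of Nkd1 were 22.8 in Wif1-high and 17.3 in Wif1-low tumours, all under 74.6.

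**Figure D1:**
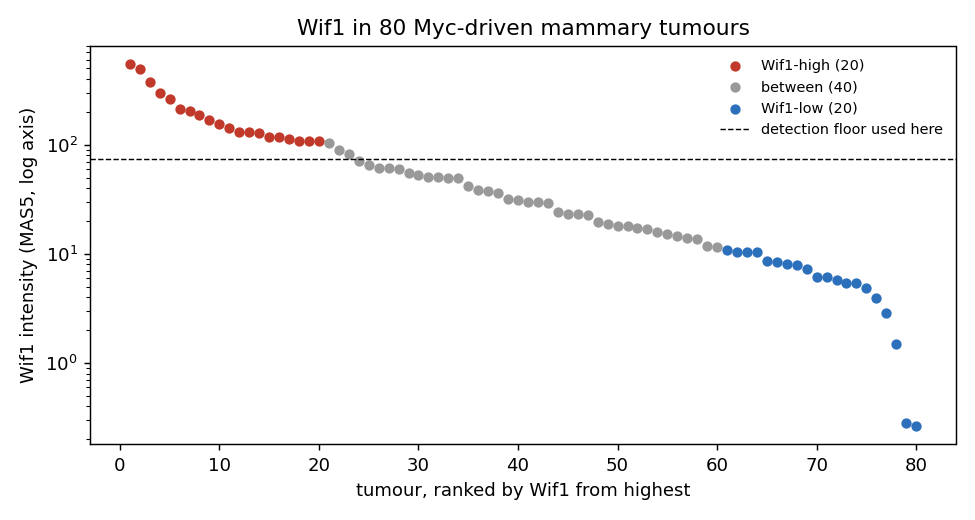
Wif1 intensity (vertical log axis, MAS5 units) of each of the 80 tumours, ranked from the highest. Red points are the 20 Wif1-high tumours, grey points the 40 tumours between, blue points the 20 Wif1-low tumours, and the dashed line is 74.6; the levels decline without a gap at either edge, from 107.3 to 102.7 and from 11.6 to 10.9.

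The number of tumours in either group did not pass a test against wild type in any E2F background. Across 6 two-sided Fisher exact tests the adjusted p was 1 each time, and the smallest unadjusted p was 0.48, for 7 of 20 E2F2 null or E2F3 heterozygous tumours against 4 of 20 wild-type tumours in the Wif1-low group. Tumours that carry the same label number may come from 1 animal, and 19 such numbers covered 46 tumours. Of these numbers, 3 held both a Wif1-high and a Wif1-low tumour. Median log2 intensity was 7.23 ± 0.09 in Wif1-high and 7.19 ± 0.11 in Wif1-low tumours (SD, n = 20 each; permutation test, two-sided, adjusted p = 0.451), and the 2 ratios of 3′ to 5′ control probe sets had an adjusted p of 0.467.

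Between the groups, 3390 of 8768 tested genes passed the test, which is 38.7% of them, with 1835 higher (20.9%) and 1555 lower (17.7%) in Wif1-high tumours. The test was limma on log2(intensity + 5), with the log2 difference taken as Wif1-high minus Wif1-low on that scale, Benjamini-Hochberg adjustment over all genes and a threshold of 0.05. The median over all tested genes was 0.01. Fold changes exceeded 1 on the log2 scale in 603 called genes and 2 in 165. In 23 genes the 2 groups did not overlap, 21 of them higher and 2 lower in Wif1-high tumours. With the mean levels of chromosomes 6 and 15 as covariates, an alternative added after those chromosomes stood out, the counts were 661 higher and 484 lower. Of 160 called genes checked singly, 80 then missed the threshold and a further 3 had the opposite sign. With the label number as a fixed block, also added after seeing the data, only the 3 numbers that held tumours of both groups carried the difference, and 31 genes were higher and 1 lower; of the 3390 called genes 3238 had the same sign there.

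In 47 of 178 genes checked singly, the median of 1 or both groups lay under 74.6. The size of such a difference, and its rank among genes, depends on dim signal and on the 5 added before the log. For some of these, the log2 difference is therefore also given with every value under 74.6 set to 74.6, another alternative added after seeing the data.

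The 40 tumours between the groups, which this contrast did not use, were fitted separately on Wif1 level. Only 3 of these 40 had Wif1 above 74.6, and some shared a label number with a Wif1-high or Wif1-low tumour. Of the 3390 called genes, 3254 (96.0%) had the same sign there, against 6908 of 8768 (78.8%) over all tested genes. Of these called genes, 986 also passed the test in the 40 tumours with the same sign and 0 with the opposite sign. Over all tested genes 1125 passed there, 704 rising and 421 falling with Wif1.

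Genes listed as output of the RAS and MAPK route, only some of which restrain the signal, rose in most of the tested members. Of 13 tested members, 10 rose and 0 fell, against 20.9% and 17.7% over all genes. Their median log2 fold change was 1.54, against 0.01 over all genes. Dusp6, a phosphatase that inactivates ERK, ran from 898 to 6240.1 (median 3467) in Wif1-high tumours and from 93.0 to 2975 (median 318) in Wif1-low tumours. In 13 of the 20 Wif1-high tumours it lay above every Wif1-low tumour, and its log2 difference was 3.26 ± 0.29 (SE; adjusted p = 9.43e-12). Among the 40 tumours between the groups its slope was 1.24 log2 units per log2 unit of Wif1 (adjusted p = 0.000589).

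Phlda1, which encodes a pleckstrin-homology protein and stands in both the MAPK and the Wnt target lists, separated the groups fully. Its intensity ran from 3446 to 10064 (median 5885) in Wif1-high tumours and from 361 to 3027 (median 1264) in Wif1-low tumours, a log2 difference of 2.10 ± 0.17 (SE; adjusted p = 9.96e-13). The transcription factors Etv4 and Etv5, both induced by FGF signalling, rose by 3.51 and 2.74 (SE 0.37 and 0.27). Their medians in Wif1-low tumours were 7.17 and 34.8, under 74.6, and with values under 74.6 set to it the log2 differences were 1.23 and 1.67 (adjusted p = 8.51e-07 and 3.89e-08). The receptor tyrosine kinase inhibitor Spry2 rose by 1.77 (SE 0.17). Each of these overlapped, with 10, 8 and 8 of 20 Wif1-high tumours above all Wif1-low tumours for Etv4, Etv5 and Spry2. The receptor Fgfr1 rose by 2.14 ± 0.26 (SE; adjusted p = 1.50e-08), and Fgfr2 fell by 0.52 (SE 0.14, adjusted p = 0.00344). Dusp1 and Egr1, immediate early genes of the same list, had log2 fold changes of -0.24 and -0.26 (adjusted p = 0.126 and 0.49).

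**Figure D2:**
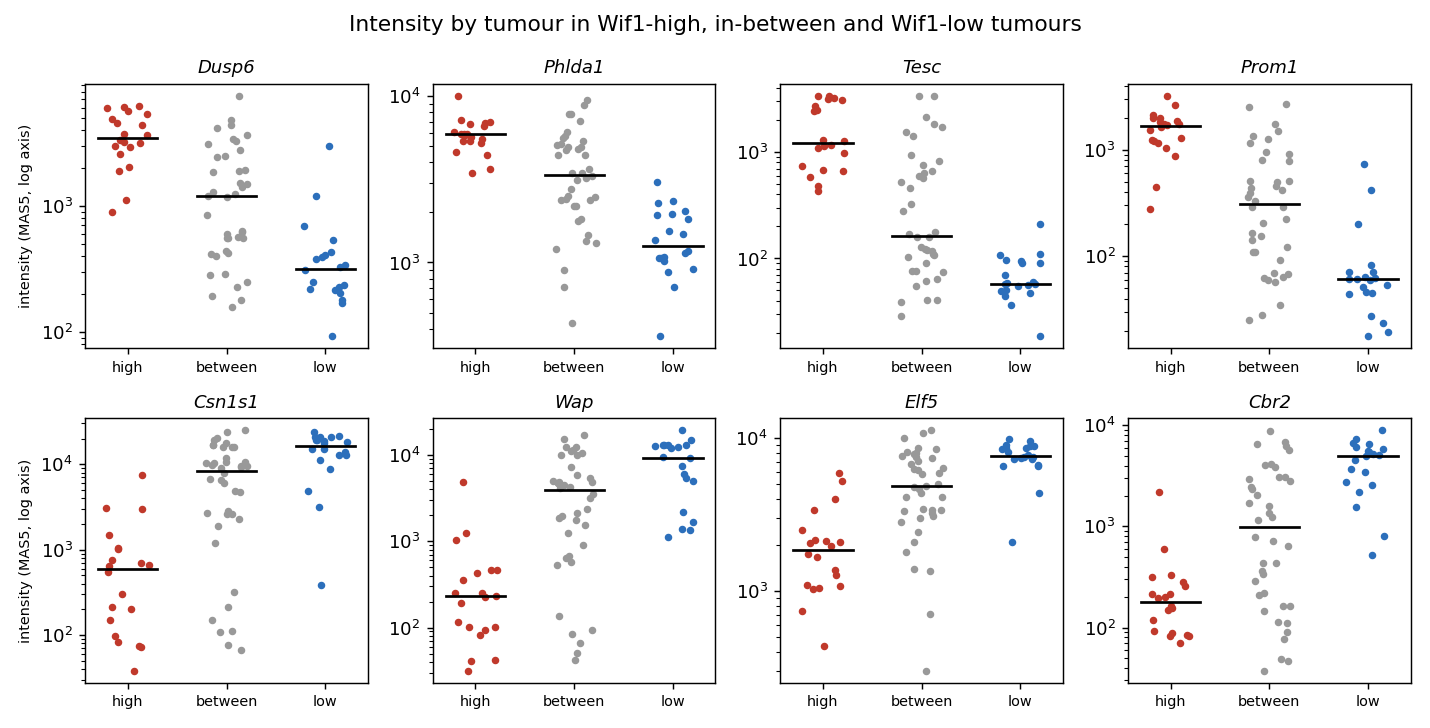
Intensity (vertical log axis, MAS5 units) of 8 genes in each tumour, with Wif1-high tumours in red on the left, the 40 tumours between in grey and Wif1-low tumours in blue on the right; the black bar is the median. Phlda1 and Tesc do not overlap between the outer groups, while single Wif1-low tumours reach Wif1-high levels for Dusp6 and Prom1.

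Milk genes moved the other way. All 12 tested members of the list passed the test and were lower in Wif1-high tumours, against 17.7% over all genes. The median log2 fold change between the groups was -3.72, and all 12 had the same sign in the 40 tumours between. Wap, the whey acidic protein, ran from 31.5 to 4896 (median 230.2) in Wif1-high tumours and from 1119 to 19178 (median 9249.8) in Wif1-low tumours. It was below every Wif1-low tumour in 18 of 20 Wif1-high tumours, with a log2 difference of -4.76 ± 0.48 (SE; adjusted p = 2.45e-10). The casein Csn1s1 ran from 38.1 to 7536 (median 589.6) in Wif1-high tumours and from 382 to 23550.4 (median 16492) in Wif1-low tumours, a log2 difference of -4.71 ± 0.54 (SE; adjusted p = 3.39e-09).

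Muc15, a mucin of the milk fat globule membrane, fell by 4.04 (SE 0.38), and Btn1a1, the butyrophilin needed for milk fat secretion, fell by 3.80 (SE 0.45). Csn2 and Csn1s2a, further caseins, fell by 3.64 (SE 0.62) and 3.86 (SE 0.83), and Glycam1, a mucin-like milk protein, fell by 3.94 (SE 1.02). Medians in Wif1-high tumours were 53.1 for Btn1a1 and 31.2 for Glycam1. With values under 74.6 set to it, the log2 differences of Btn1a1 and Glycam1 were -3.14 and -2.73. The spread was wide: Csn2 ran from 41.7 to 15707 (median 2078) in Wif1-high tumours and from 948 to 20988 (median 17198) in Wif1-low tumours, so the groups overlapped. With chromosomes 6 and 15 as covariates the log2 fold change was -1.56 for Csn2, -2.24 for Csn1s2a and -3.38 for Glycam1 (adjusted p = 0.275, 0.297 and 0.169), and that of Wap was -3.67 (adjusted p = 0.000641). When the groups were chosen anew from Axin2, Lef1 and Nkd1, Csn2 and Csn1s2a had log2 fold changes of 0.15 and 0.06, opposite in sign.

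The promoters of the caseins Csn2 and Csn1s1 are shown because Stat5 is known to act on milk genes and both windows were found to hold its motif. Of 7 motifs searched on both strands after the results were seen, TTCNNNGAA, the core of Stat sites, was in the windows of 4 of 7 milk genes that had one, and in 8.30% of all 32851 windows. The windows are RefSeq's for GRCm38.p6, from 250 bases before to 50 after the gene start, and the motif is in capitals. The Csn2 window is chr5:87699376-87699675 on the minus strand and that of Csn1s1 is chr5:87665958-87666257 on the plus strand.
Csn2: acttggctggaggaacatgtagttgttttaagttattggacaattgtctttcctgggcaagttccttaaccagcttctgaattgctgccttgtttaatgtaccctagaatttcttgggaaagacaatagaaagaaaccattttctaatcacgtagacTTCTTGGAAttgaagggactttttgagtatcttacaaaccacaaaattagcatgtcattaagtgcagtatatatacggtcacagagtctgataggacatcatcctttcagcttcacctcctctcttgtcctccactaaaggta
Csn1s1: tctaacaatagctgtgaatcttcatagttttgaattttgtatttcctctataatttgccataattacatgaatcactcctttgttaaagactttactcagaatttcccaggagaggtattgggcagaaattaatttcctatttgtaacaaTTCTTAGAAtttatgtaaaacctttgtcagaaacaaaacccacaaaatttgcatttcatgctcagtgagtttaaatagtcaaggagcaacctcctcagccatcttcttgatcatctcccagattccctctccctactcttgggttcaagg
The motif began 93 bases before the start of Csn2 and 100 bases before that of Csn1s1. The Wif1 window did not hold TTCNNNGAA. The 28 genes counted next had a window and were Wif1 or were named by size, by smallest p or by milk function. CTTTGA, the core of TCF sites, was in a window of 1 of these 28 genes and in 5257 of all 32851 windows. The longer CTTTGAA, which contains it, was in 0 of 28 and in 5.14% of all windows, and CTTTGT was in 8 of 28 and 18.7%. An ETS core, CCGGAA, was in 4 of 28 and 14.9%, and the longer CCGGAAG, which contains it, was in 2 of 28 and 8.86%. GGAAGT was in 5 of 28 and 23.8%, and the Stat core was in 4 of 28.

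Regulators and markers of alveolar luminal cells fell in part. Of 16 tested members of the luminal progenitor and alveolar list, 8 fell and 2 rose, against 17.7% and 20.9% over all genes. The list median was -0.40, and its highest log2 fold change was 1.39. Krt18 was 1 of the 2 members that rose, at 0.37. Elf5, the transcription factor of alveolar cells, ran from 439.8 to 5914 (median 1865) in Wif1-high tumours and from 2101 to 9834 (median 7647) in Wif1-low tumours, a log2 difference of -2.02 ± 0.23 (SE; adjusted p = 3.33e-09). Ltf, the iron-binding milk protein lactoferrin, fell by 4.17 (SE 0.56), Cldn7, a tight junction claudin, by 0.63 (SE 0.11) and Wfdc18 by 1.28 (SE 0.21). Cldn7 had -0.25 (adjusted p = 0.274) with the chromosome means as covariates. Krt8, a luminal keratin, ran from 4636 to 15009 (median 9103) in Wif1-high tumours and from 7498 to 14431 (median 9761) in Wif1-low tumours. Epcam had a log2 difference of 0.14 (adjusted p = 0.276), Krt8 -0.17 (adjusted p = 0.289) and Cdh1 -0.03 (adjusted p = 0.835).

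In the list of hormone-sensing luminal markers, 3 of 6 tested members rose and 0 fell, against 20.9% and 17.7% over all genes. The list median was 0.10. The hormone receptors Esr1 and Pgr, and also Tnfsf11, Cited1 and Tbx3, were below the filter. The other tested members, Gata3, Wnt4 and Krt8, had -0.24, -0.44 and -0.17 (adjusted p = 0.215, 0.289 and 0.289). Prom1, a membrane glycoprotein of luminal cells, ran from 278 to 3213 (median 1676) in Wif1-high tumours and from 17.7 to 728 (median 60.4) in Wif1-low tumours, a log2 difference of 4.35 ± 0.33 (SE; adjusted p = 1.37e-13). Foxa1, a pioneer factor for the oestrogen receptor, rose by 2.78 ± 0.50 (SE; adjusted p = 2.40e-05), with a median of 34.9 in Wif1-low tumours. The keratin Krt18 rose by 0.37 (SE 0.12). Of 17 tested basal and myoepithelial markers 2 rose and 3 fell, against 20.9% and 17.7% over all genes, so the fallen share was near that over all genes. The keratins Krt14 and Krt5 fell by 2.57 (SE 0.42) and 2.10 (SE 0.40), Igfbp5 fell by 1.29 (SE 0.24), and the galectin Lgals7 rose by 2.23 (SE 0.35). With the chromosome means as covariates, Foxa1 had 1.68 and Krt18 0.04 (adjusted p = 0.164 and 0.896). Trp63, the basal master regulator, had -0.44 (adjusted p = 0.502). In groups chosen from Axin2, Lef1 and Nkd1, the log2 fold changes of Krt14 and Krt5 were 0.16 and 0.44.

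Wnt genes outside the score moved in both directions, and more rose than fell among the target genes, the receptors and the coregulators. The 7 Wnt lists held 125 tested genes. Of 37 tested target genes 14 rose and 7 fell, with a median of 0.30, against 20.9% and 17.7% over all genes. Tnfrsf19, a receptor of the TNF family, ran from 249 to 802 (median 439.7) in Wif1-high tumours and from 10.2 to 251 (median 88.4) in Wif1-low tumours, a log2 difference of 2.29 ± 0.26 (SE; adjusted p = 2.42e-09). Cyclin D1, Ccnd1, rose by 1.32 ± 0.36 (SE; adjusted p = 0.00346), the hyaluronan receptor Cd44 by 0.99 (SE 0.26) and Irs1, an insulin receptor substrate, by 1.11 (SE 0.30). Glul, glutamine synthetase, fell by 1.30 (SE 0.21) and the peptide Edn1 fell by 2.00 (SE 0.27). Edn1 had a median of 53.9 in Wif1-high tumours, and -1.41 with values under 74.6 set to it. With the chromosome means as covariates Ccnd1 had 1.11 and Cd44 0.53 (adjusted p = 0.26 and 0.463). Ascl2, with medians of 20.9 in Wif1-high and 40.4 in Wif1-low tumours, fell by 0.99 (SE 0.38), but had -0.22 with values under 74.6 set to it (adjusted p = 0.11). Sox9 had -0.32 (adjusted p = 0.193).

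Of 8 tested ligands, 1 rose and 1 fell, against 20.9% and 17.7% over all genes. A further 15 ligands and R-spondins on the array were below the filter. Wnt5b, a ligand tied mainly to beta-catenin-independent signalling, ran from 15.2 to 177 (median 34.6) in Wif1-high tumours and from 15.6 to 640.2 (median 213) in Wif1-low tumours, a log2 difference of -2.10 ± 0.31 (SE; adjusted p = 9.67e-07). Wnt7b rose by 0.73 ± 0.26 (SE; adjusted p = 0.0213). Wnt4 and Wnt5a had -0.44 and -0.59 (adjusted p = 0.289 and 0.13). Among 17 tested receptors and coreceptors 9 rose and 2 fell, against 20.9% and 17.7% over all genes, with a median of 0.20. Fzd9 rose most, at 1.70 ± 0.25 (SE; adjusted p = 5.40e-07), followed by Tspan12, a coreceptor component for norrin, at 1.16 (SE 0.18). The coreceptors Lrp5 and Lrp6 rose by 0.60 and 0.50 (SE 0.14 and 0.08), and Fzd8 and Fzd4 fell by 0.89 and 0.47 (SE 0.21 and 0.14). Medians were under 74.6 for Lrp5 in Wif1-low tumours (49.4) and for Fzd8 in Wif1-high tumours (38.9). With values under 74.6 set to it, the log2 differences of Lrp5 and Fzd8 were 0.09 and -0.12. Lgr5, a receptor for R-spondins, had -0.61 (adjusted p = 0.103). Wnt7b lies on chromosome 15 and Tspan12 and Lrp6 on chromosome 6, and with the means of those chromosomes as covariates their log2 differences were 0.04, 0.63 and 0.23 (adjusted p = 0.967, 0.124 and 0.219). For Fzd2, which rose by 0.42 (adjusted p = 0.0185), another detected probe set had -0.10.

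Other inhibitors of the pathway split, 3 up and 2 down among 10 tested, against 20.9% and 17.7% over all genes. Sfrp2, a secreted Frizzled-related protein, ran from 25.0 to 758 (median 108) in Wif1-high tumours and from 63.5 to 2270.2 (median 1352) in Wif1-low tumours, a log2 difference of -3.28 ± 0.35 (SE; adjusted p = 6.04e-10). Rnf43, an E3 ligase that removes Frizzled receptors, was above every Wif1-low tumour in 19 of 20 Wif1-high tumours, at 1.10 ± 0.11 (SE; adjusted p = 8.01e-11). Shisa2, which retains Frizzled and FGF receptors in the cell, rose by 2.49 ± 0.32 (SE; adjusted p = 4.90e-08), and Nkd2 rose by 1.36 ± 0.38 (SE; adjusted p = 0.00378). Sostdc1, an extracellular Wnt and BMP antagonist, fell by 1.12 (SE 0.42, adjusted p = 0.031). Sfrp1 and Sfrp4 had 0.11 and -0.22 (adjusted p = 0.666 and 0.338).

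Intracellular components moved in both directions. Of 19 tested destruction complex and Dishevelled genes 4 rose and 2 fell, and of 20 beta-catenin and TCF coregulators 8 rose and 4 fell. Over all genes the shares were 20.9% higher and 17.7% lower. Ctnnb1, beta-catenin itself, ran from 7049 to 12499.6 (median 8896) in Wif1-high tumours and from 8151 to 13008 (median 10032) in Wif1-low tumours, a log2 difference of -0.14 ± 0.06 (SE; adjusted p = 0.0515). The scaffold genes Apc and Axin1 had -0.11 and -0.11 (adjusted p = 0.114 and 0.148), and other probe sets of both genes had the opposite sign. The TCF factors Tcf7l1 and Tcf7l2 fell by 0.61 and 0.52 (SE 0.16 and 0.15), and Frat2, a GSK3-binding protein, fell by 1.41 (SE 0.26), or -0.25 with values under 74.6 set to it. The corepressor Tle2 rose by 1.07 (SE 0.21) while Tle4 fell by 0.71 (SE 0.16). Among 14 planar polarity genes 2 rose and 2 fell, against 20.9% and 17.7% over all genes, with Prickle1 at 0.76 (SE 0.18) and Celsr1 at -0.97 (SE 0.27). Celsr1 had a median of 60.4 in Wif1-high tumours, and -0.57 with values under 74.6 set to it.

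**Figure D3:**
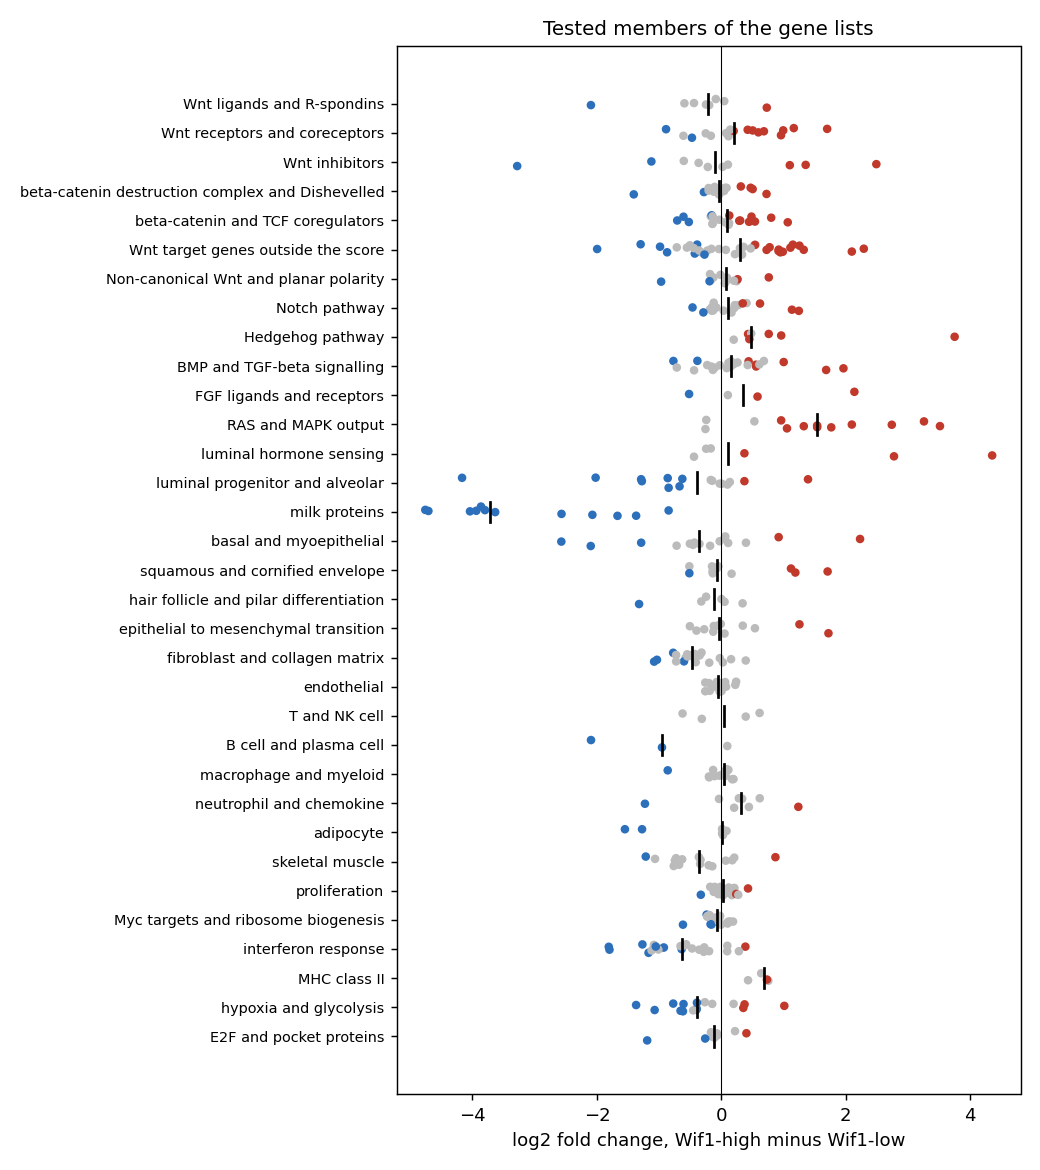
Log2 fold change, Wif1-high minus Wif1-low (horizontal axis), of every tested member of the 33 gene lists. Red points rose and blue points fell past the threshold, grey points did not pass, and the black bar is the list median; milk proteins lie at a median of -3.72 and RAS and MAPK output at 1.54, while the Wnt lists spread on both sides of 0.

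Hedgehog genes rose in 5 of 7 tested members, with 0 lower, against 20.9% and 17.7% over all genes, and 6 more on the array were below the filter. Dhh, the desert hedgehog ligand, ran from 29.8 to 1699.5 (median 601) in Wif1-high tumours and from 6.52 to 444 (median 27.7) in Wif1-low tumours, a log2 difference of 3.75 ± 0.42 (SE; adjusted p = 1.77e-09), or 2.46 with values under 74.6 set to it. The signal transducer Smo rose by 0.76 ± 0.09 (SE; adjusted p = 8.93e-09), the coreceptor Boc by 0.96 (SE 0.19) and the inhibitor Sufu by 0.45 (SE 0.09). The BMP and Notch lists lay near the shares over all genes. Of 24 BMP and TGF-beta genes 6 rose and 2 fell, with a median of 0.15, and of 18 Notch genes 4 rose and 2 fell, with a median of 0.10. The members that rose included Ltbp1, which anchors latent TGF-beta, at 1.96 ± 0.25 (SE; adjusted p = 4.01e-08), Tgfb1 at 1.68 ± 0.20 (SE; adjusted p = 8.76e-09), the Notch target Hey1 at 1.25 (SE 0.25) and Notch4 at 1.14 (SE 0.26).

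Many genes outside the signalling lists also differed. Chn2, a Rac GTPase-activating protein, ran from 494 to 2282 (median 1025) in Wif1-high tumours and from 3.66 to 1429.5 (median 16.6) in Wif1-low tumours, a log2 difference of 5.34 ± 0.38 (SE; adjusted p = 2.60e-14). The groups overlapped, and 8 of 20 Wif1-high tumours lay above them all. Col2a1 and Snorc, both known from cartilage, rose by 4.90 (SE 0.44) and 3.78 (SE 0.41). Tesc, a calcium-binding protein, and Cldn10, an ion-selective claudin, did not overlap between the groups, at 4.29 (SE 0.27) and 3.89 (SE 0.30). Wif1-low medians of these genes were all under 74.6, at 16.6 for Chn2, 7.17 for Col2a1, 23.9 for Snorc, 58.0 for Tesc and 35.8 for Cldn10. With values under 74.6 set to it, the log2 differences were 3.58 for Chn2, 2.45 for Col2a1, 2.16 for Snorc, 3.92 for Tesc and 3.02 for Cldn10, with the largest adjusted p at 1.03e-06.

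Carbonic anhydrase 6, Car6, ran from 634 to 17325 (median 9069) in Wif1-high tumours and from 28.0 to 6579 (median 454) in Wif1-low tumours, a log2 difference of 3.71 ± 0.49 (SE; adjusted p = 8.77e-08). Socs2, a suppressor of cytokine signalling that is induced through Stat5 and dampens growth hormone responses, rose by 3.33 ± 0.29 (SE; adjusted p = 8.21e-12). Emid1 rose by 3.63 (SE 0.34). Bex2, Capn6, the keratin Krt23 and the neurokinin receptor Tacr3 rose by 3.66, 3.59, 3.47 and 3.33, with Wif1-low medians of 56.2, 26.8, 22.2 and 1.33, all under 74.6. With values under 74.6 set to it, these log2 differences were 3.09, 2.32, 1.71 and 0.62. Tacr3 was above 74.6 on 12 Wif1-high and 0 Wif1-low arrays. The smallest p-values belonged to Cystm1 at 2.09 ± 0.11 (SE; adjusted p = 1.00e-17) and to the orphan nuclear receptor Nr4a1 at 2.46 ± 0.14 (SE; adjusted p = 2.89e-17). Bpgm, bisphosphoglycerate mutase, rose by 1.99 (SE 0.13) with no overlap.

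Saa1, a serum amyloid A protein, had a median of 217 and a highest value of 11305 in Wif1-high tumours, against 11087 and 22107 in Wif1-low tumours, a log2 difference of -4.90 ± 0.64 (SE; adjusted p = 6.66e-08). Its relatives Saa2 and Saa3 fell by 4.77 and 3.51 (SE 0.60 and 0.39), and these copies are similar enough that their probe sets may share signal. Orm1, another acute phase protein, fell by 4.47 (SE 0.59), the membrane mucin Muc4 by 3.83 (SE 0.38) and the collectin Sftpd by 3.77 (SE 0.48). Their medians in Wif1-high tumours were 5.90, 2.82 and 42.2, and with values under 74.6 set to it the log2 differences were -2.22, -1.19 and -3.08. Cbr2, a carbonyl reductase, ran from 70.6 to 2184 (median 179) in Wif1-high tumours and from 518 to 8905 (median 4984) in Wif1-low tumours, a log2 difference of -4.23 ± 0.34 (SE; adjusted p = 8.28e-13). Car13, another carbonic anhydrase, fell by 2.48 (SE 0.20) and Epb41l4a, a band 4.1 family protein, by 3.40 (SE 0.28). Slc7a6, an amino acid transporter, was lower in all 20 Wif1-high tumours than in any Wif1-low tumour, with a log2 difference of -0.98 ± 0.09 (SE; adjusted p = 6.04e-12).

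Myc did not pass the test, and few proliferation genes did. Myc ran from 7079 to 14232 (median 11585) in Wif1-high tumours and from 7946 to 15544 (median 11577) in Wif1-low tumours, a log2 difference of -0.03 ± 0.07 (SE; adjusted p = 0.804). Of 28 tested proliferation genes 2 rose and 1 fell, against 20.9% and 17.7% over all genes, with a median of 0.02. The replication genes Mcm2 and Pcna rose by 0.43 (SE 0.11) and 0.24 (SE 0.07), and with the chromosome means as covariates their adjusted p was 0.998 and 0.0695. Mki67 and Top2a, named as familiar proliferation markers outside the naming rule, had -0.02 and 0.01 (adjusted p = 0.886 and 0.968). Rb1, the retinoblastoma protein that holds E2F factors in check, fell by 1.19 (SE 0.16, adjusted p = 1.45e-07), with 11 of 20 Wif1-high tumours below every Wif1-low tumour, and its relative Rbl2 rose by 0.40 (SE 0.09).

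Hypoxia and glycolysis genes fell in 9 of 16 tested members and rose in 3, against 17.7% and 20.9% over all genes, with a median of -0.40. Ndrg1, a hypoxia-induced gene, fell by 1.37 (SE 0.25), the glycolytic enzyme Aldoa by 0.66 (SE 0.09) and Ldha, lactate dehydrogenase A, by 0.62 (SE 0.07). Interferon response genes fell in 7 of 23 tested members and rose in 1, against 17.7% and 20.9% over all genes, with a median of -0.64. Among these, Rtp4 had -1.81 (SE 0.40) and the oligoadenylate synthetase Oas2 -1.80 (SE 0.42), and with the chromosome means as covariates -0.33 and -1.11 (adjusted p = 0.708 and 0.227).

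Markers of other cell types were counted in the same way. None of 14 endothelial genes and none of 4 tested T and NK cell genes passed the test in limma, with 0 and 2 at an unadjusted p under 0.05. The array held 19 T and NK cell genes, and those not tested, Cd3e, Cd4 and Cd8a among them, were below the filter. In the macrophage list 1 of 16 genes fell. Over all genes 38.7% passed the test. Of 21 fibroblast and collagen genes 4 fell, a share near the 17.7% over all genes, and 0 rose. The median of these 21 was -0.47, and 18 of them had a negative sign, against 4279 of 8768 over all genes. Dcn and Col1a1 had -1.04 (SE 0.32) and -0.77 (SE 0.30), and with the chromosome means as covariates their adjusted p was 0.231 and 0.302. The mean of that list, centred over all tumours, ran from -1.35 to 0.96 in Wif1-high tumours and from -1.67 to 2.74 in Wif1-low tumours. With that mean as a covariate, 2029 genes were higher and 1679 lower. The part of that list in the other results was not tested further. Of 3 tested plasma and B cell genes 2 fell, Jchain by 2.10 (SE 0.41) and Ighm by 0.95 (SE 0.18). Of 6 tested adipocyte genes 2 fell, Pparg by 1.55 (SE 0.31) and Lpl by 1.27 (SE 0.22), and 0 rose, with a list median of 0.01. Over all genes 17.7% fell. Medians of Pparg were 20.8 in Wif1-high and 70.6 in Wif1-low tumours, and its log2 difference was -0.24 with values under 74.6 set to it. The parts of the plasma cell and adipocyte lists in the milk gene result were not tested.

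Called genes were unevenly placed in the genome. On chromosome 6, 236 of 459 tested genes (51.4%) were higher in Wif1-high tumours and 31 (6.75%) lower, and on chromosome 15 the higher share was 49.3%. On the other chromosomes it ran from 11.3% to 24.2%. The median log2 fold change was 0.26 on chromosome 6 and also on chromosome 15, and from -0.06 to 0.02 on the others. Chn2, Bpgm and Smo lie on chromosome 6, and Col2a1, Dhh and Nr4a1 on chromosome 15.

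**Figure D4:**
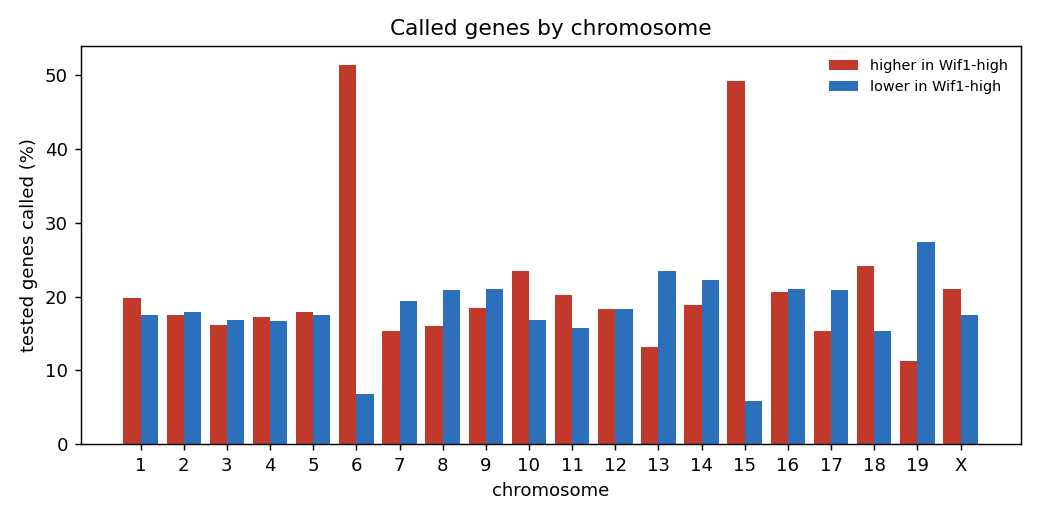
Share of tested genes on each chromosome (vertical axis, percent) that were called higher (red) or lower (blue) in Wif1-high tumours. Chromosome 6 reaches 51.4% and chromosome 15 reaches 49.3% higher, while no other chromosome exceeds 24.2%.

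Each tumour's mean over the tested genes of a chromosome, centred over all tumours, showed the same. For chromosome 6 the mean exceeded 0.15, a limit set after the values were seen, in 15 of 20 Wif1-high tumours, 11 of 40 tumours between and 1 of 20 Wif1-low tumours. For chromosome 15 it did so in 13 of 20, 13 of 40 and 1 of 20. Neither mean exceeded 0.15 in 2 Wif1-high tumours, 23 tumours between and 18 Wif1-low tumours. Without covariates 2927 of 7954 genes on other chromosomes passed the test, and with both means as covariates 1008 did. There the log2 fold change was 3.03 for Dusp6, 4.38 for Prom1, -1.82 for Elf5 and -3.19 for Csn1s1 (adjusted p = 1.32e-05, 6.42e-07, 0.000146 and 0.00191). Among the other genes named here as called, the call was also lost with these covariates for Ascl2, Celsr1, Fgfr2, Fzd2, Fzd4, Fzd8, Jchain, Lgals7, Lrp5, Nkd2, Prickle1, Rbl2, Sostdc1, Sufu, Tcf7l1, Tcf7l2, Tle2 and Tle4. Whether DNA copy number differs between these tumours was not tested.

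**Figure D5:**
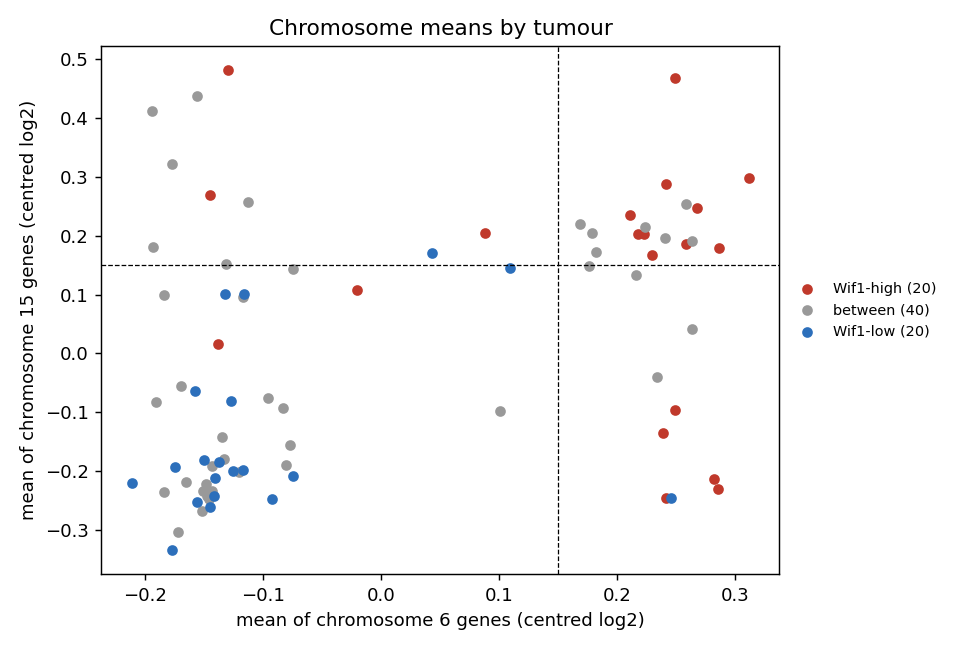
Mean of the tested genes of chromosome 6 (horizontal axis) and of chromosome 15 (vertical axis) in each tumour, as log2 values centred on each gene's mean. Dashed lines mark 0.15; 18 of 20 Wif1-low tumours (blue) lie below both lines, against 2 of 20 Wif1-high tumours (red), with the 40 tumours between in grey.

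The difference between the groups was also compared across the 4 backgrounds, by a moderated F test of the interaction in limma. No gene passed at an adjusted p under 0.05, with 234 genes at an unadjusted p under 0.05 and 438 anticipated by chance. With 2 to 7 tumours of a background in a group, this test says little about single genes.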

How the data were processed

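Per the labels, total RNA from 80 frozen tumours was hybridised to 1-colour Affymetrix arrays, 1 tumour each. The deposited values are linear intensity values made by the authors with MAS5 in Affymetrix Expression Console, per the submitters' processing notes; the sources used here give no version. Arrays limit the precision by their number. Here, values became log2(intensity + 5); a probe set was kept if above 74.6, the 40th percentile of all values, on at least 10 arrays, and the brightest was used per gene (8769 of 12393 genes, Wif1 included). Of 22626 probe sets, 20380 had 1 gene symbol, 691 several and 1555 none.

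Tests used limma 3.58.1 in R 4.3.3 with trend and robust options and the label number as a random block (statmod 1.5.0; 31 numbers among 40 arrays, correlation 0.13), and Python 3.11.15 with scipy 1.17.1 (permutation tests with 100000 resamples). p-values measure only the spread between these tumours. The groups and gene lists were chosen with earlier results of these data known. Genes were named by rule: the 15 largest called changes in each direction, the 4 smallest p-values, members of the 7 Wnt lists and up to 4 members of each other list. Cdh1, Dusp1, Egr1, Mki67 and Top2a were named outside this rule, after their values were seen. Epcam, Krt8 and Trp63 were also named, though not among the 4 smallest p-values of their cell type lists. Alternatives that regroup the tumours, add chromosome means, fix the label number as a block or raise low values to 74.6 were also chosen after seeing the data.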

Additional observations from a re-analysis of the deposited data

How the results depend on the processing

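The 1835 higher and 1555 lower genes had counts within 1.5 times of these under pseudocounts of 1 and 20, no filter, a filter on 40 arrays, quantile normalization, no block, 1 mean per label number, genotype, fibroblast or T cell covariates, all 80 arrays on Wif1 level and, added after seeing the data, the 20 highest against the other 60, values under 74.6 set to it and groups from Axin2, Lef1, Nkd1 and Wif1. Quantile normalization gave 1709 higher and 1731 lower, a higher share of 49.7% against 54.1%. Larger shifts came with the 10 highest against the 10 lowest (975 and 733, fewer samples), the 40 tumours between (704 and 421), every probe set on its own (2345 lower), and, also added, chromosome 6 and 15 means (661 and 484), the label number as a fixed replicate block (31 and 1, carried by 3 numbers) and groups from Axin2, Lef1 and Nkd1 (1442 higher and 935 lower). Those last groups kept 10 of 20 Wif1-high and 5 of 20 Wif1-low tumours, 5 Wif1-high tumours became low, and 12 called genes had the opposite sign among 1085 called in both. The cause of these shifts was not tested. Of 160 called genes checked singly, the opposite sign was found for 5 in the tumours between, 3 with the chromosome means, 4 with the fixed block, 1 with groups from 4 genes and 22 with groups from Axin2, Lef1 and Nkd1, and for 0 under the other alternatives; calls were lost for 68 with 10 against 10, 77 in the tumours between, 80 with the chromosome means, 148 with the fixed block, 6 with values under 74.6 set to it and 72 with groups from Axin2, Lef1 and Nkd1. Opposite signs, uncalled genes included, were: Myc 0.029 and Mki67 0.022 with quantile normalization; Top2a -0.000515 with genotype; Top2a -0.0011 and Cdh1 0.029 with 10 against 10; Mki67 0.013 over all arrays; Fgfr2 0.22, Lbh -0.18, Myc 0.030, Mki67 0.11, Apc 0.022, Axin1 0.056, Egr1 0.12, Trp63 0.11, Smarca4 0.020, Ighm 0.093 and Polr1b 0.052 in the tumours between; Top2a -0.057 with the fibroblast mean; Ascl2 0.026, Mcm2 -0.000728, Mki67 0.033, Cdh1 0.024, Sox9 0.14, Sfrp1 -0.13 and Scrib -0.079 with the chromosome means; Ascl2 0.65, Epcam -0.034, Mcm2 -0.10, Met -0.12, Ryk -0.015, Sfrp4 0.65, Top2a -0.0057, Sox9 0.070 and Egr1 0.083 with the fixed block; Mki67 0.033 and Cdh1 0.016 against the other 60; Krt8 0.0046, Lgr5 0.099, Sfrp4 0.076, Wnt4 0.30, Wnt5a 0.15, Top2a -0.076, Cdh1 0.089, Axin1 0.0055, Egr1 0.28, Trp63 0.67 and Postn 0.094 with groups from 4 genes; Bmpr1a 0.048, Ccn5 0.084, Celsr1 0.091, Col1a1 0.38, Csn1s2a 0.058, Csn2 0.15, Ctnnb1 0.14, Dcn 0.69, Fzd4 0.12, Irf9 0.050, Krt14 0.16, Krt5 0.44, Krt79 0.050, Krt8 0.23, L1cam 0.030, Lgr5 0.52, Lum 0.11, Mcm2 -0.000129, Numb 0.040, S100a8 0.51, Sfrp4 0.24, Sostdc1 0.60, Wnt4 0.47, Wnt5a 0.83, Top2a -0.22, Cdh1 0.067, Axin1 0.078, Egr1 0.89, Trp63 1.35, Smarca4 0.013, Ighm 0.096, Postn 0.57 and Tgm1 0.082 with groups from Axin2, Lef1 and Nkd1. E2F3 heterozygous minus wild-type tumours in the high group came to 1 rather than -1 with 10 against 10. The score without each of its genes was not run, as Wif1 was its only gene, and leaving out E2F1 null replicate 6, which is in neither group, changed nothing. Replicate numbers follow accession order and pair no samples; the label number was a random block, and leaving it out gave 1867 higher and 1586 lower genes. Dim signal limits the order of tumours below an intensity of 74.6.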
